A study of Rattus norvegicus with 8 samples.

Results

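The genes described here handle arginine and its products ornithine, nitric oxide and polyamines. They are Slc7a1, Asl, Nos2, Gch1, Slc25a15, Oat, Odc1 and Sat1. They were chosen by gene symbol from a list proposed with the stage differences of these samples already known. Their differences between the stages are therefore given as a description. Where one of them passes a threshold, this places it among all probes and is not a test of it. The array held 1 probe for each of the 8 genes among 22523 probes for 21674 gene symbols in all. Symbols in the annotation of the array matched 6 of the genes, and Gch1 and Sat1, listed there as Gch and Sat, were matched by gene ID.

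Total RNA came from incisor enamel organs of 4 male Wistar Hannover rats aged 4 weeks, untreated and of no stated genetic alteration. Each rat gave a secretory-stage and a maturation-stage sample, so that 8 arrays (Illumina RatRef-12 v1 bead arrays) held 4 samples per stage. The enamel organ is the epithelial tissue that makes enamel: ameloblasts deposit the protein matrix at the secretory stage, and at the maturation stage remove it again while the mineral fills in. The tissue was dissected from freeze-dried mandibles along a reference line, and the layer taken holds several cell types of which enamel organ is the main part. The source label of 3 of the 4 maturation-stage samples names the secretory stage, against their title, description and tissue label, and all 8 arrays correlated more with the stage of their title. Klk4, the protease of maturation, lay between 5.14 and 6.47 in the secretory stage and between 13.12 and 13.45 in the maturation stage (normalized log2 signal). Enam, an enamel matrix transcript of the secretory stage, was at 9.08 and 8.22 in maturation replicates 1 and 4, against 5.17 and 5.53 in replicates 2 and 3 and 11.94 to 12.03 in the secretory stage. Without those 2 samples, a choice made after the data were seen, the counts of the genes described here that passed as higher or lower were unaltered. The array detected 10667 to 10941 probes per secretory-stage sample and 11164 to 11450 per maturation-stage sample, where detected means a detection p below 0.05 against the negative controls of the array.

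Arginine enters cells through cationic amino acid carriers and is also made from citrulline by argininosuccinate synthase and lyase. It is split into urea and ornithine, while nitric oxide synthases turn it into nitric oxide with the help of tetrahydrobiopterin. Ornithine can cross into mitochondria, be exchanged with glutamate and proline, or be decarboxylated to putrescine, the parent of the polyamines spermidine and spermine, which are in turn acetylated and oxidised for removal.

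The stretch before the annotated transcription start is printed for 4 genes, because 3 of them (Gch1, Slc25a15 and Sat1) were higher in the maturation stage with no overlap and Odc1, which starts the synthesis of the polyamines that Sat1 acetylates, was not. The sequences are 150 bases each, 5′ to 3′ on the strand of the gene and ending just before the start, from RefSeq. Capitals mark, on either strand, TGACG (the core of the cAMP response element), CCAAT (the CCAAT box), GGGCGG (the GC box) and TATAAA (the TATA box).
Gch1, GRCr8 chr15:22917413-22917562, reverse strand: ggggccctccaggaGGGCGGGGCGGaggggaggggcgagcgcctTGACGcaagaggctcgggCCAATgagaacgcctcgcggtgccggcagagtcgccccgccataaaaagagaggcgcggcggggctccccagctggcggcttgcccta
Slc25a15, GRCr8 chr16:76336720-76336869, forward strand: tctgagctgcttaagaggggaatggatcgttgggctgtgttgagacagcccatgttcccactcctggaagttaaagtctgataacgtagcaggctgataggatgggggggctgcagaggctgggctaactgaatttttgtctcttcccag
Sat1, GRCr8 chrX:44007939-44008088, forward strand: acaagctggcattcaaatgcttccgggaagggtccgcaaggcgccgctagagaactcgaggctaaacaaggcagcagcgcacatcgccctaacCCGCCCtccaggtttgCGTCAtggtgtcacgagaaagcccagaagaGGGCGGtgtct
Odc1, GRCr8 chr6:46058515-46058664, forward strand: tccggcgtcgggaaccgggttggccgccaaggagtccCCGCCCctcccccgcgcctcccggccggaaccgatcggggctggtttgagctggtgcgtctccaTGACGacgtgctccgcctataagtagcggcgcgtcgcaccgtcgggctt

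Over the whole 250 bases before the start, RefSeq windows were found for 7 of the 8 genes, that is for all but Nos2. TGACG occurred on either strand in 4 of these 7 genes, Slc7a1, Gch1, Odc1 and Sat1, and in 18.2% of 33469 rat windows of that length. In Gch1 it began 106 bases before the start, in Odc1 at 177 and 49 bases, and in Sat1 at 41 bases. GGGCGG occurred in 6 of the 7, all but Slc25a15, against 30.5% of all windows, and 2 copies overlapped in Gch1. CCAAT occurred in Slc7a1, Gch1, Slc25a15 and Oat, against 34.0% of all windows, and TATAAA in 12.9% of all windows and in none of the 7. Odc1, with 78.0% G and C, and Slc25a15, with 48.8%, were the extremes of the 7 windows. These matches describe letters only, and whether transcription in this tissue begins at the annotated starts was not tested.

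Of the 8 genes, 6 were detected on all 8 arrays, and Slc7a1 and Nos2 on no array. Gch1 and Slc25a15 were higher at maturation and passed both of the study's thresholds (adjusted p below 0.05 and a fold of at least 1.8). These 2 genes are 25% of the list, where 4.6% of all probes were higher. Nothing is read from the share, or from their passing the thresholds, because the genes were chosen from this contrast. No member passed both thresholds as lower (3.15% of all probes did) in limma, nor with the test that the methods name. At an unadjusted p below 0.05, 3 members were higher and 1 was lower, Odc1 (of the 22523 probes, 3570 were higher and 4126, or 18.3%, lower). After adjustment Odc1 stayed below 0.05 in limma, but not with the rat as a replicate block or with the test that the methods name. The arrays of the stages did not overlap for 3 of the 8 genes, Gch1, Slc25a15 and Sat1, and for 27.7% of all probes. The median log2 fold change (maturation minus secretory) was -0.06 over the 8 genes and -0.01 over all probes. The median of the 8 includes the undetected Slc7a1 and Nos2. It was 0.22 with a detection filter that drops them, and 0.12 under median scaling.

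**Figure D1:**
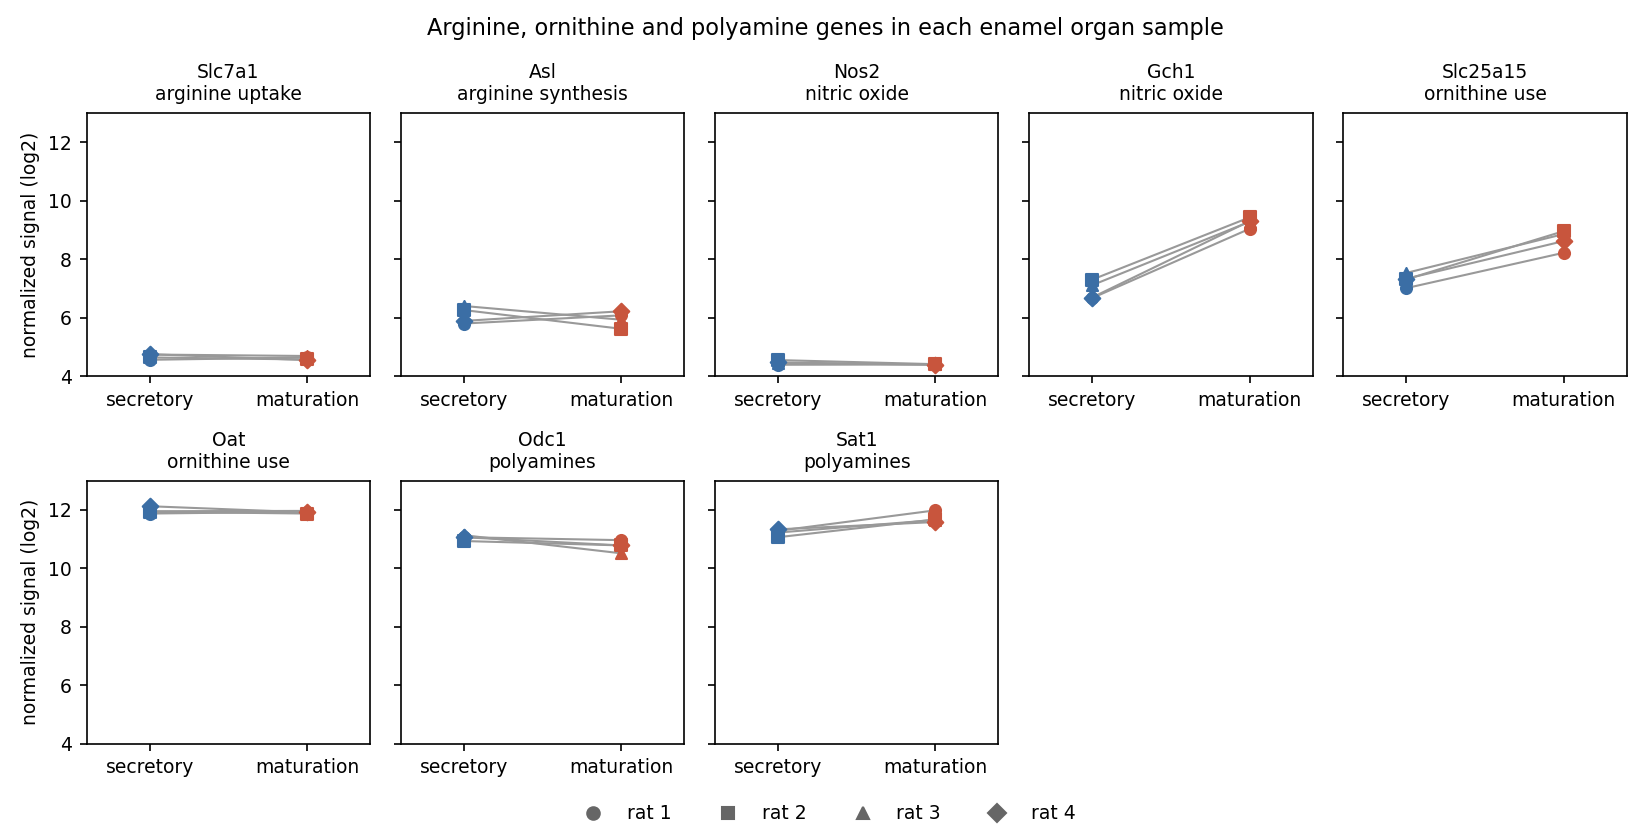
Normalized log2 signal (y axis) of each of the 8 genes in the secretory-stage and maturation-stage sample of each rat, with the samples of a rat joined by a line. Gch1 goes from 6.67 to 7.30 in the secretory stage to 9.04 to 9.43 in the maturation stage, Slc25a15 is higher by less, and Oat lies at 11.87 to 12.12 throughout.

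Slc7a1, the main cationic amino acid carrier of most cells, was not detected by its probe (ILMN_1351408) in any sample. Its normalized log2 signals were 4.56, 4.64, 4.74 and 4.75 in the secretory stage and 4.64, 4.57, 4.69 and 4.55 in the maturation stage, with detection p-values from 0.16 to 0.412. At this signal no level can be told from background, so no fold is given.

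Asl, which releases arginine from argininosuccinate, was detected on all arrays close to background (ILMN_1372241). Its signals were 5.80, 6.26, 6.40 and 5.89 in the secretory stage and 6.08, 5.62, 5.93 and 6.22 in the maturation stage. The ranges of the stages overlapped for most samples, and maturation was the higher sample in 2 of 4 rats (log2 fold change -0.13 ± 0.16, SE). Under median scaling the sign turned, to 0.10.

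Nos2, the inducible nitric oxide synthase of activated macrophages, was detected in no sample (ILMN_1372107). Its signals were 4.39, 4.55, 4.44 and 4.47 in the secretory stage and 4.40, 4.41, 4.40 and 4.39 in the maturation stage, with detection p-values from 0.411 to 0.886. These values are at the floor of the arrays and have no order.

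Gch1, GTP cyclohydrolase, opens the synthesis of tetrahydrobiopterin, the cofactor of all nitric oxide synthases and of the aromatic amino acid hydroxylases (ILMN_1372022). Its signals were 6.67, 7.30, 7.11 and 6.69 in the secretory stage and 9.04, 9.43, 9.28 and 9.30 in the maturation stage. The groups were separated by more than the spread within either, and the difference within a rat was 2.36, 2.13, 2.17 and 2.61. The fitted difference was 2.32 ± 0.15 (SE), or 4.99-fold, and 3.1-fold without background correction.

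Slc25a15, the mitochondrial ornithine carrier that links cytosolic ornithine to the mitochondrial enzymes, had signals of 7.01, 7.31, 7.53 and 7.33 in the secretory stage and 8.22, 8.96, 8.86 and 8.62 in the maturation stage (ILMN_1350697). Each maturation-stage sample was above each secretory-stage sample, and rats 1 to 4 differed by 1.21, 1.65, 1.33 and 1.29. The fitted difference was 1.37 ± 0.17 (SE), or 2.58-fold. Rat 1 had the lowest signal of each stage.

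Oat, the ornithine aminotransferase that receives that ornithine inside mitochondria, differed little between the stages (ILMN_1352155). Its signals were high and even, at 11.87, 11.93, 11.95 and 12.12 in the secretory stage and 11.93, 11.87, 11.96 and 11.91 in the maturation stage. The stages overlapped, maturation was higher in 2 of 4 rats, and the difference was -0.05 ± 0.07 (SE), turning to 0.13 under median scaling. The beads themselves agreed within a standard error of 2.41% to 3.84% of the mean on each array, from 30 to 49 beads.

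Odc1, ornithine decarboxylase, makes putrescine and sets the pace of polyamine synthesis (ILMN_1369735). Its signals were 11.06, 10.93, 11.13 and 11.06 in the secretory stage and 10.96, 10.78, 10.51 and 10.78 in the maturation stage. The stages overlapped by 1 sample, maturation replicate 1, although the maturation-stage sample was lower in 4 of 4 rats (differences of -0.10, -0.15, -0.62 and -0.28). The difference was -0.29 ± 0.09 (SE), 1.22-fold, and shrank to -0.03 under median scaling. In the same samples 5 of 6 cell cycle markers had an adjusted p below 0.05 in the lower direction, as had 14.0% of all probes and 23.0% of those detected on at least 1 array. The other, Pcna, had one in the higher direction (0.28, adjusted p = 0.0121), and all 6 were short of 1.8-fold. Their part in the Odc1 difference was not tested.

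Sat1, the acetyltransferase that marks spermidine and spermine for export or oxidation, differed in the direction opposite to Odc1 (ILMN_1368419). Its signals were 11.28, 11.06, 11.22 and 11.33 in the secretory stage and 11.98, 11.67, 11.65 and 11.58 in the maturation stage. All maturation-stage samples were above all secretory-stage samples, and the difference was 0.71, 0.61, 0.44 and 0.24 in rats 1 to 4. It came to 0.50 ± 0.10 (SE), or 1.41-fold, under the 1.8-fold threshold, and to 0.73 under median scaling.

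**Figure D2:**
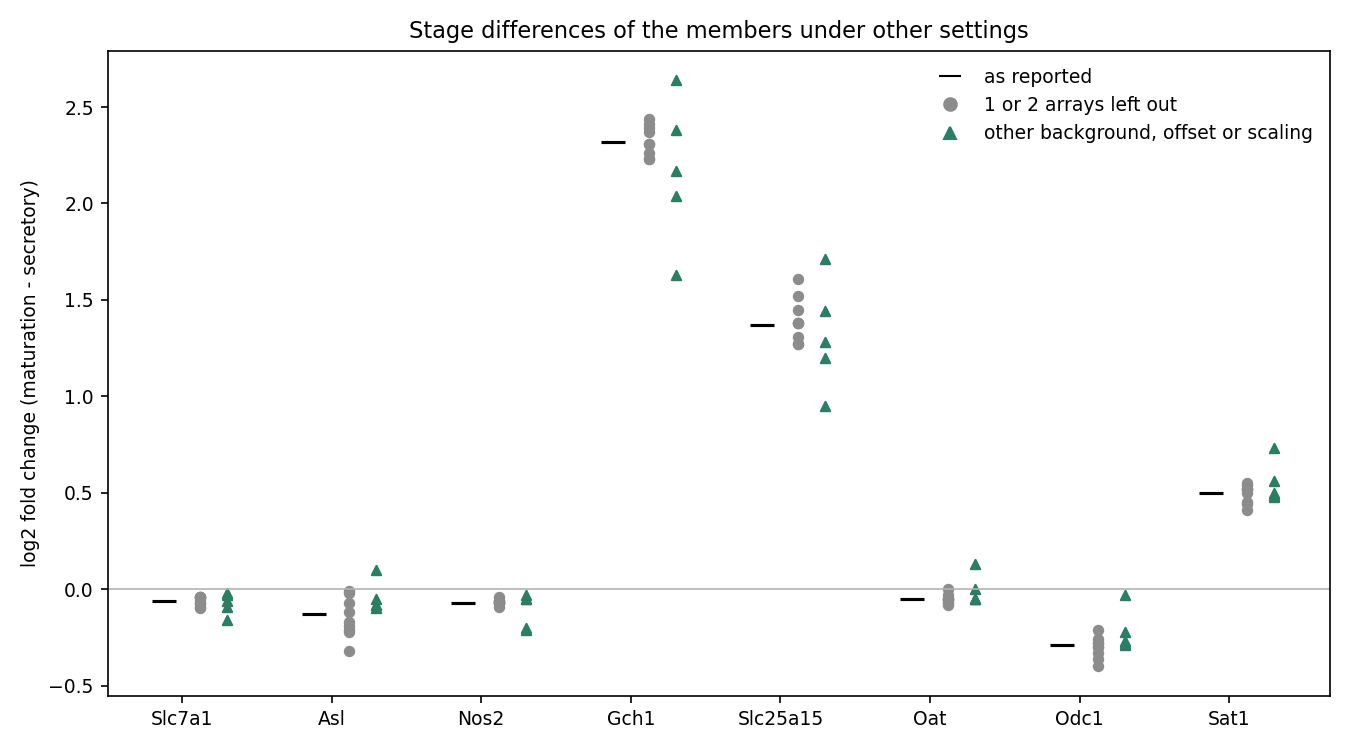
Log2 fold change (maturation minus secretory, y axis) of the 8 genes as reported (bars), with 1 or 2 arrays left out (circles) and under another background correction, offset or scaling (triangles). Over the triangles Gch1 spans 1.63 to 2.64 and Slc25a15 0.95 to 1.71, while Asl and Oat cross 0.

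The rest of the pathway was read from a list of 69 further genes by role, of which 59 had a probe, each gene taken by its probe with the highest mean signal. In limma, 5 of the 59 rose (8.47%, against 4.6% of all probes) and 6 fell (10.2%, against 3.15%). Among the probes detected on at least 1 array, as 53 of the 59 were, 7.66% were higher and 5.25% lower. At an adjusted p below 0.05 with no demand on the fold, 28 passed, 14 in each direction, which is 47.5% of the genes against 26.9% of all probes and 44.0% of the probes detected on at least 1 array. Their median log2 fold change was -0.04, and -0.01 over all probes. All adjusted p-values below are from limma with Benjamini-Hochberg adjustment over the 22523 probes. Besides the genes that rose or fell and Eif5a, which stands for a role with no such gene, genes of the list are named to complete a role and were picked with their values in view.

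**Figure D3:**
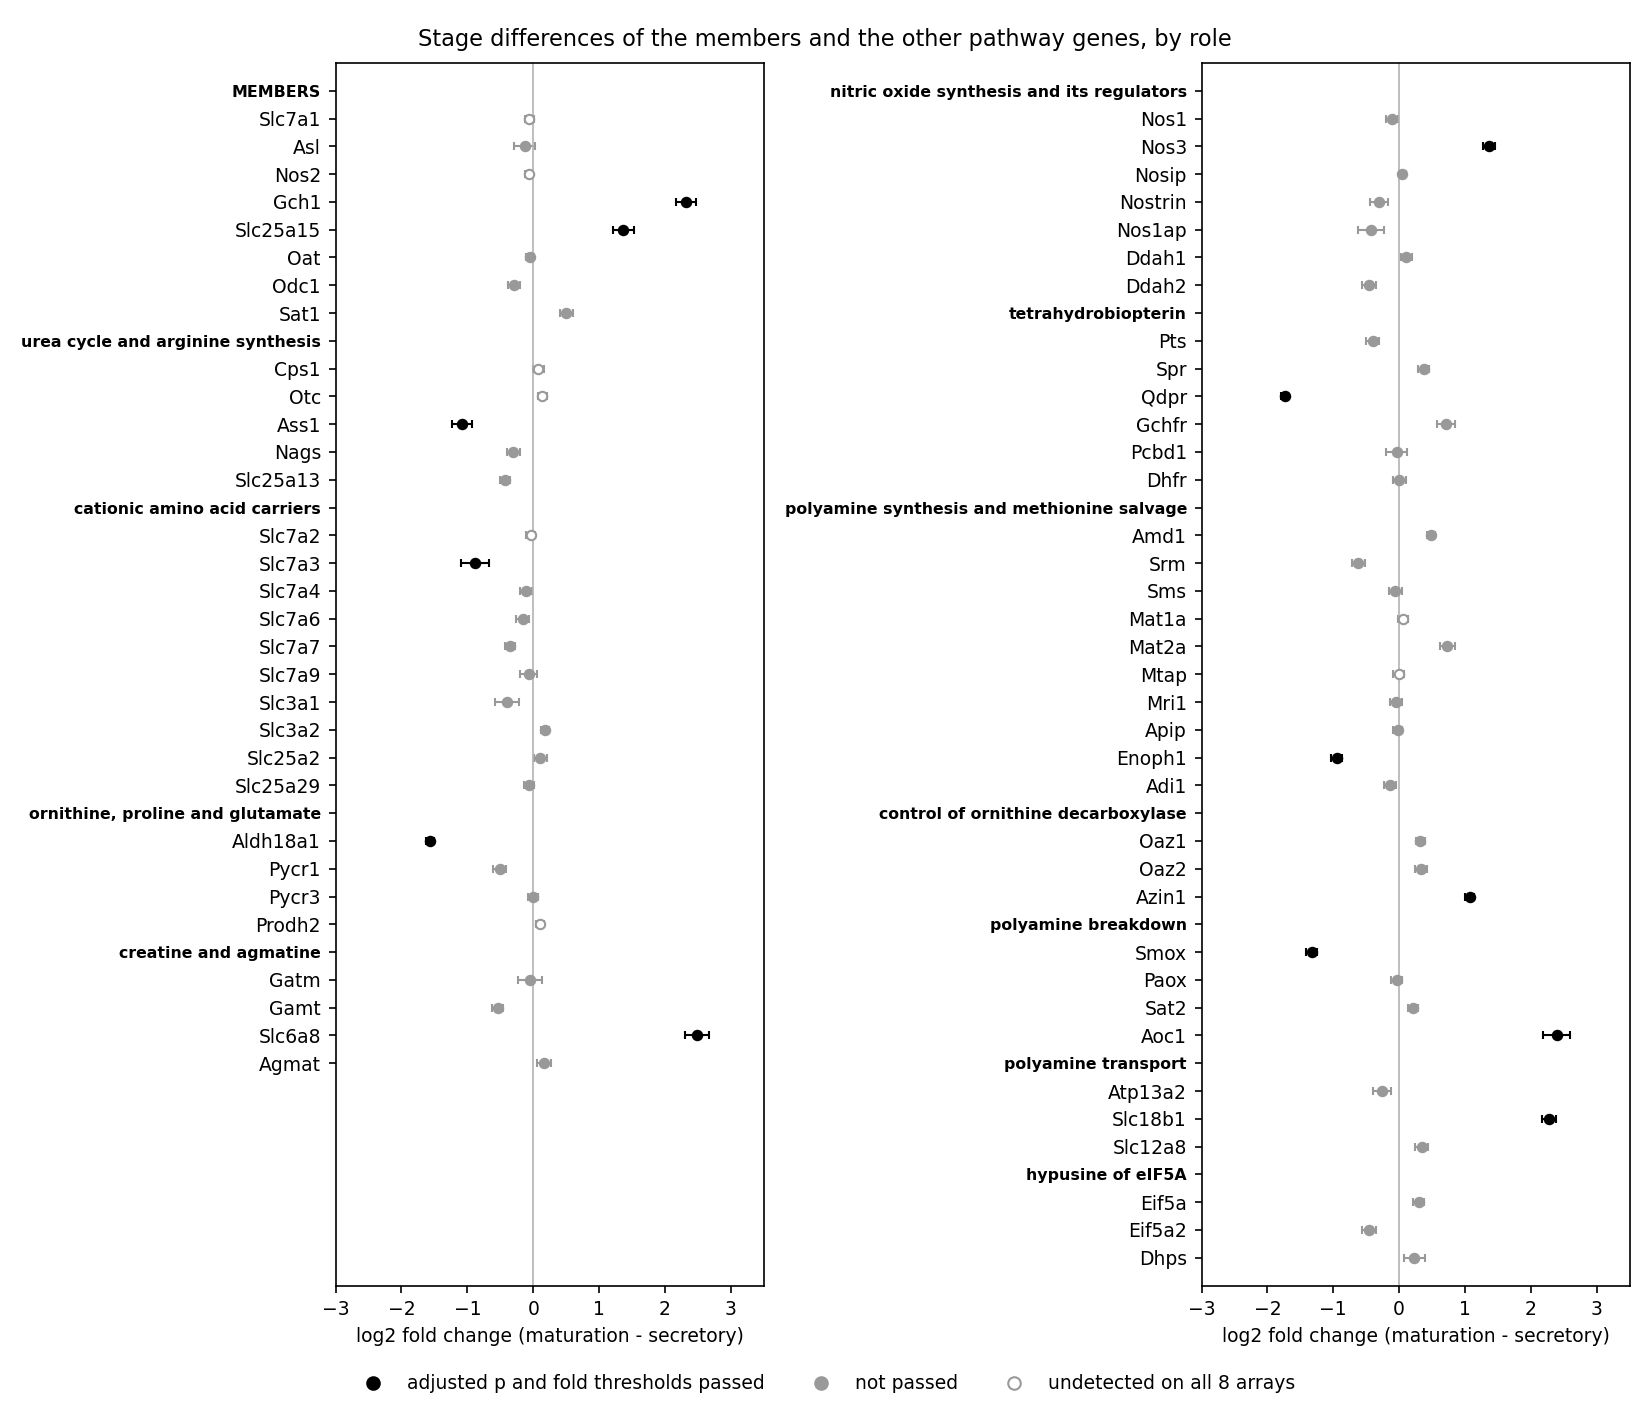
Log2 fold change (maturation minus secretory, x axis) of the 8 genes, under MEMBERS, and of 59 other genes of the pathway by role; bars are the SE of the fit, filled black points passed both thresholds and open points were undetected on all 8 arrays. Slc6a8, Aoc1, Slc18b1, Nos3 and Azin1 lie to the right of 0, Qdpr, Aldh18a1, Smox, Ass1, Enoph1 and Slc7a3 to the left, and roles mostly hold points on both sides.

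Of the genes that bring in or build arginine, 2 of the 15 measured fell, where 3.15% of all probes and 5.25% of those detected on at least 1 array did. The others did not pass both thresholds. Ass1, which makes argininosuccinate, the substrate of Asl, had signals of 5.72, 5.21, 6.05 and 5.71 in the secretory stage and 4.63, 4.44, 4.64 and 4.67 in the maturation stage, where it was undetected on all 4 arrays. The 2 stages did not overlap, and the mRNA was at least 1.65-fold higher in the secretory stage (adjusted p = 0.000517). Slc7a3, a cationic amino acid carrier related to Slc7a1, was detected on 3 secretory-stage arrays, at 5.24, 5.54 and 6.10 with 4.91 on the array that did not detect it, and on no maturation-stage array (4.55 to 4.60). Its fold was at least 1.41 (adjusted p = 0.0108). Taken at these lower bounds, neither gene reached 1.8-fold, and the 6 genes that fell were then 4. The call of Slc7a3 was lost in several alternative settings, among them the test that the methods name (adjusted p = 0.0555) and the fits without secretory replicate 2 (log2 fold change -0.84) or 3 (-0.66). Without background correction the fold was 1.22 for Slc7a3 and 1.27 for Ass1. Cps1 and Otc, the mitochondrial urea cycle enzymes of liver that feed Ass1, were undetected on all arrays. Slc25a13, the mitochondrial aspartate carrier, was lower by less than 1.8-fold (-0.43, adjusted p = 0.00149). Slc3a2, the heavy chain shared by several amino acid exchangers, differed by 0.18 (adjusted p = 0.0368, and 0.0926 with the rat as a replicate block), and its light chain Slc7a7 by -0.35 (adjusted p = 0.00532).

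Around ornithine, Aldh18a1, which makes the glutamate semialdehyde from which proline and ornithine are built, fell. It had 10.70, 10.63, 10.68 and 10.74 in the secretory stage and 9.09, 9.03, 9.20 and 9.14 in the maturation stage. The groups were tight and far apart (-1.57 ± 0.06, SE, adjusted p = 1.22e-07). Pycr1, which turns that product into proline in mitochondria, was detected on 3 secretory-stage arrays and on no maturation-stage array (at least 1.19-fold, adjusted p = 0.0027). Pycr3, a cytosolic enzyme of the same step, was at 9.70 in both stages.

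Among the genes of creatine and agmatine, which are made from arginine, Slc6a8, the creatine transporter, rose. Its signals were 7.70, 7.90, 8.02 and 7.46 in the secretory stage and 9.80, 10.61, 10.45 and 10.16 in the maturation stage. The difference was 2.48 ± 0.18 (SE, adjusted p = 6.92e-06), and rat 1 had the lowest maturation-stage signal, as it did for Slc25a15. Gamt, which completes creatine synthesis, was lower by less than 1.8-fold (-0.54, adjusted p = 0.00129). Gatm, which starts it from arginine and glycine, was detected by 1 of its 2 probes, on 2 arrays per stage (-0.05, adjusted p = 0.913).

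Nos3, the nitric oxide synthase first described in endothelium, rose where Nos2 was undetected. It had 7.17, 7.34, 7.37 and 7.03 in the secretory stage and 8.71, 8.63, 8.60 and 8.43 in the maturation stage (1.36 ± 0.09, SE, adjusted p = 4.04e-06). The stages were apart by more than either spread. Nos1, the neuronal form, was detected on 1 array per stage. Ddah2, which clears methylated arginines that inhibit these synthases, was lower by less than 1.8-fold (-0.46, adjusted p = 0.00707), and its relative Ddah1 differed by 0.11 (adjusted p = 0.406).

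The tetrahydrobiopterin genes differed in both directions around Gch1. Qdpr, which regenerates the cofactor after use, fell from 10.99, 10.95, 10.92 and 10.96 in the secretory stage to 9.22, 9.22, 9.12 and 9.32 in the maturation stage. Its difference, -1.74 ± 0.06 (SE, adjusted p = 7.4e-08), was the largest fall of the list. Gchfr, the feedback regulator of GTP cyclohydrolase, was higher by less than 1.8-fold (0.71, adjusted p = 0.00262). Of the later enzymes of synthesis, Pts differed by -0.40 (adjusted p = 0.0127) and Spr by 0.37 (adjusted p = 0.0078).

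Of the enzymes that turn putrescine into polyamines and salvage their methionine, Enoph1, an enzyme of the salvage route, fell (-0.95 ± 0.08, SE, adjusted p = 1.47e-05), short of 1.8-fold under median scaling (-0.69). It had 11.21, 11.01, 11.17 and 11.28 in the secretory stage and 10.19, 10.36, 10.22 and 10.12 in the maturation stage. The steps of synthesis did not move together, and none reached 1.8-fold. Amd1, which supplies the aminopropyl donor, was higher (0.48, adjusted p = 0.000227), Srm, spermidine synthase, was lower (-0.62, adjusted p = 0.00112), and Sms, spermine synthase, differed by -0.06 (adjusted p = 0.784). Mat2a, which makes S-adenosylmethionine, was higher by 0.73 (adjusted p = 0.00096).

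The protein level of ornithine decarboxylase is set by antizymes, which send it for degradation, and by an antizyme inhibitor, which protects it, and all 3 measured genes of this control were higher in the maturation stage at an adjusted p below 0.05, as were 12.8% of all probes and 21.0% of those detected on at least 1 array. Azin1, the antizyme inhibitor, rose past both thresholds, from 9.94, 9.94, 10.05 and 10.08 to 11.16, 11.08, 10.95 and 11.10 (1.07 ± 0.07, SE, adjusted p = 2.37e-06). The antizymes Oaz1 (0.32, adjusted p = 0.00734) and Oaz2 (0.33, adjusted p = 0.019) differed by less than 1.8-fold, and Oaz2 did not pass 0.05 in 2 of 8 fits with an array left out. Odc1 mRNA itself differed by -0.29. No protein was measured.

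In polyamine breakdown, beside Sat1, 1 gene fell and 1 rose. Smox, which oxidises spermine back to spermidine, went from 11.10, 11.20, 10.99 and 10.83 in the secretory stage to 9.69, 9.78, 9.66 and 9.68 in the maturation stage (-1.33 ± 0.08, SE, adjusted p = 2.39e-06). Paox, which oxidises the acetylated polyamines that Sat1 makes, was at 9.60 and 9.56 on average (adjusted p = 0.843), while its other, dimmer probe differed by 0.35 (adjusted p = 0.0256). Aoc1, the diamine oxidase that degrades putrescine and histamine outside cells, was undetected on all secretory-stage arrays (4.53 to 4.97) and detected on all maturation-stage arrays, at 7.48, 6.52, 7.54 and 7.11. On the background-corrected scale, maturation-stage samples held at least 4.33-fold more (adjusted p = 2.21e-05). The size depended on the treatment of background: the fitted difference was 1.54 log2 units at an offset of 50, and 0.94, or 1.92-fold, without background correction.

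Slc18b1, a vesicular polyamine transporter, was listed on the array only under a provisional name and was identified by its gene ID. Its signals rose from 7.22, 7.04, 6.99 and 7.38 to 9.23, 9.59, 9.5 and 9.38 (2.27 ± 0.11, SE, adjusted p = 4.58e-07), or 4.81-fold, and 3.16-fold without background correction. Of the genes for hypusine, the spermidine-derived residue of the translation factor eIF5A, Eif5a differed by 0.30 (adjusted p = 0.025) and Eif5a2 by -0.46 (adjusted p = 0.0108), both under 1.8-fold. The adjusted p of Eif5a was 0.054 with the rat as a replicate block, 0.0558 with the test that the methods name, and not below 0.05 in 6 of 8 fits with an array left out. Dhps, which transfers the spermidine part, differed by 0.23 (adjusted p = 0.376).

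The tissue holds other cells than ameloblasts, and Gch1 and Nos2 are also genes of activated macrophages, so markers of other cells are given beside these values. Of 18 macrophage and leukocyte markers 15 had a probe and 9 rose in the maturation stage, where 4.6% of all probes and 7.66% of those detected on at least 1 array did. Among the 9 were Cd68 (2.19, adjusted p = 2.27e-06), Cd74 (2.0, adjusted p = 9.35e-07) and Cd14 (1.94, adjusted p = 2.63e-06). The summed level of the 15 (linear normalized signal) ranged from 4963 to 6067 in the secretory stage and from 12661 to 16176 in the maturation stage. Cd163 was undetected in the secretory stage and detected on 2 maturation-stage arrays, and Mrc1, the mannose receptor of tissue macrophages, differed by 0.40 (adjusted p = 0.0786). The osteoclast markers Mmp9 (3.0, adjusted p = 2.8e-05), Atp6v0d2 (2.88, adjusted p = 2.21e-05) and Ctsk (1.13, adjusted p = 7.86e-05) rose too, which is 3 of 5 measured, while Calcr was undetected on all arrays. The osteoclast sum was 5981 to 8536 in the secretory stage and 14996 to 19283 in the maturation stage. Most of that sum was Ctsk, much the brightest of these markers (12.79 and 13.92 on average), and Oscar differed by 0.11 (adjusted p = 0.641). The part of these cells in the values of Gch1 and the other genes was not tested, and in whole tissue a different number of cells of a type and a different amount of RNA per cell cannot be told apart. Which cells of the tissue held these marker transcripts was not measured either.

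**Figure D4:**
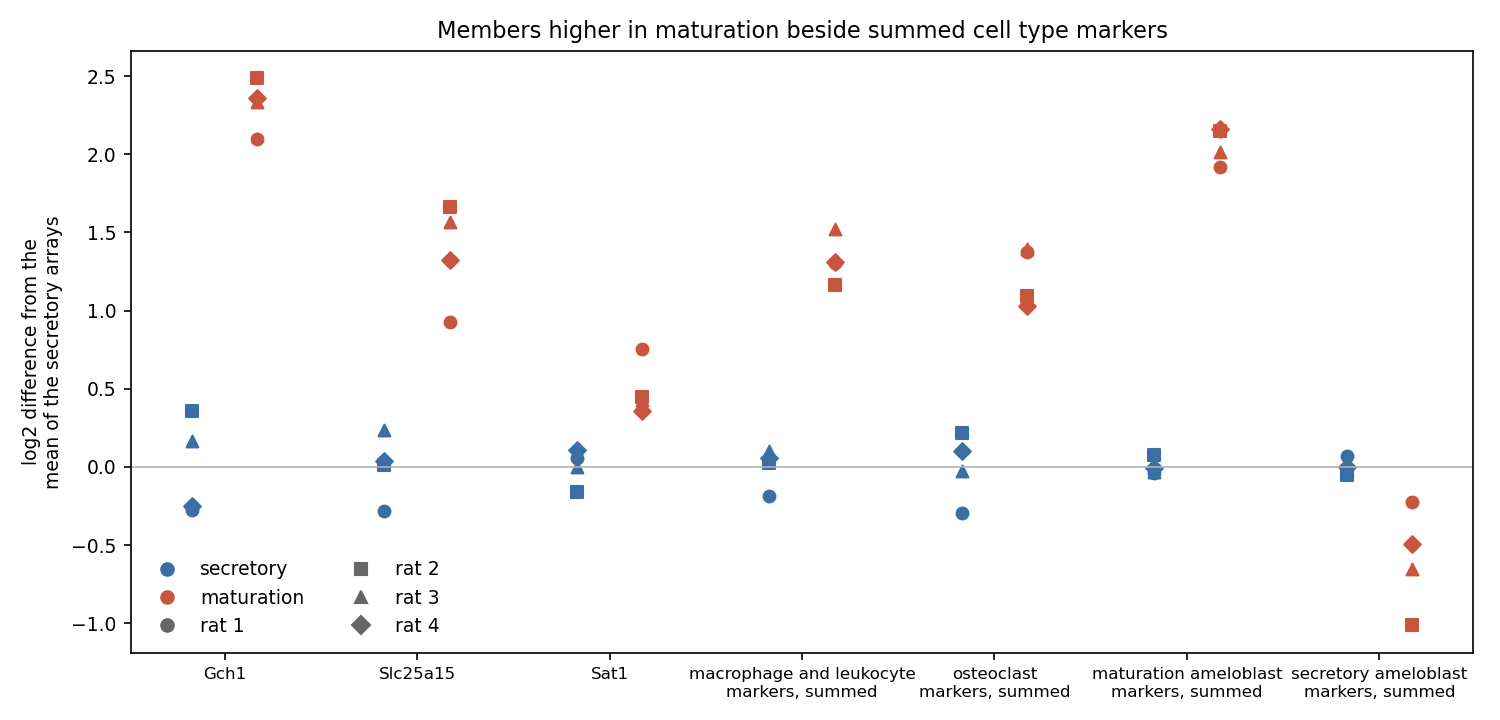
Log2 difference from the mean of the 4 secretory-stage arrays (y axis) for Gch1, Slc25a15 and Sat1 and for the summed signal of 4 marker lists, 1 point per sample with a symbol for each rat. All 4 maturation-stage samples lie above the secretory-stage samples for the 3 genes and for the macrophage, osteoclast and maturation ameloblast sums, and below them for the secretory ameloblast sum. A sum mostly follows the brightest markers of its list.

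The other lists moved less or marked the stage itself. Of the maturation ameloblast markers 4 of 5 rose, with a sum of 6297 to 6828 against 24439 to 28963. Most of the secretory-stage sum was Alpl (12.57 and 12.87 on average), short of 1.8-fold, while the others rose by 1.75 (Wdr72) to 7.57 (Klk4). Of the secretory ameloblast markers 3 of 5, Enam, Mmp20 and Dspp, fell (3.15% of all probes did), with a sum of 59916 to 65054 against 30704 to 52998. That sum was mostly Amelx (-0.53, adjusted p = 0.0555) and Ambn (-0.36, adjusted p = 0.0353), which did not pass both thresholds. The fibroblast and dental mesenchyme sum was 66840 to 77688 against 82464 to 85955. Blood markers overlapped between the stages (14586 to 26215 and 22063 to 25575), as did the sums of skeletal muscle markers (354 to 692 and 301 to 982), of which 1 of 8, Actn3, fell (-1.57, adjusted p = 2.57e-06), and cell cycle markers (5629 to 6975 and 6401 to 6791). The cell cycle sum was mostly Pcna (12.09 and 12.37 on average), the only one of the 6 that was higher. The other 5 were lower at an adjusted p below 0.05 and short of 1.8-fold.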

How the data were processed

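RNA from both stages of 4 rats (8 samples) was hybridised to Illumina arrays. The authors deposited the mean intensity of the beads of each probe, neither background-corrected nor normalized, together with a detection p-value, a bead number and the standard error over the beads. The summarising software and the genome build are not given in the sources used here.

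Signals were background-corrected with limma 3.58.1 in R 4.3.3 (neqc, with the negative controls estimated through the deposited detection p-values and an offset of 16), quantile-normalized and taken to log2. All 22523 probes were compared between the stages with lmFit and eBayes, unpaired, with Benjamini-Hochberg adjustment. A probe passed at an adjusted p below 0.05 and a fold of at least 1.8. For a probe undetected on all 4 arrays of a stage, the fold is a lower bound against the lowest normalized signal of a detected probe on each array. The procedure was tested on simulated data. The number of arrays limits the precision. Replicates are different rats.

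Each rat gave both stages. Over 11233 probes detected on at least 4 arrays, deviations from the stage means correlated at 0.195, 0.129, 0.219 and 0.234 within a rat, so the numbers were taken to pair the samples. The average with other rats was -0.0799 to -0.0406. Deviations within a stage cancel out, so these negative values follow from the positive ones and are no separate evidence. A model that blocks on the rat was run as well.

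The 8 genes, the pathway list and the marker lists were chosen with earlier results of these data known. Other genes of the proposed list are not reported here. Named were all 8 genes, every pathway gene that passed both thresholds, and the gene with the highest mean signal of each role without one. Further pathway and marker genes were named after their values were seen. Gene IDs matched 17430 probes to current symbols of the GRCr8 gene table. Python 3.11.15 was used for counts and sequence matches. Alternatives were other background corrections, offsets, scalings, tests and thresholds, a detection filter and each array left out.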

Additional observations from a re-analysis of the deposited data

Results flagged for a closer look

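Of 49 sets of 4 values examined, 1 held a sample far from the other 3, where chance gives about 1 in 20. The log2 of the summed level of the fibroblast and dental mesenchyme markers in maturation replicate 1 was 16.39, and 16.33 to 16.34 in the other maturation-stage samples.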

How the results depend on the processing

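Gch1 and Slc25a15 passed both thresholds as higher under all 19 alternatives, of which 8 left out 1 array each. For these 2 genes, with 1 probe each and detected on all arrays, the lower bounds and the choice of the most changed probe repeat the reported result by construction. No member passed as lower under any alternative, nor with maturation replicates 1 and 4 both left out, a choice made after the data were seen. With the rat as a replicate block, 2 members and 5 pathway genes were higher and 6 pathway genes lower, and no named gene gained or lost both thresholds. Of the 28 pathway genes at an adjusted p below 0.05, Eif5a (0.054) and Slc3a2 (0.0926) were lost with that block. Without background correction 859 probes passed instead of 1745, and the median log2 fold change of the pathway list was -0.01. That median was 0.02 with cyclic loess, 0.08 under median scaling, and -0.05 to -0.01 with an array left out. The median of the members was 0.12 under median scaling, 0.22 with the detection filter, which drops Slc7a1 and Nos2, and 0.00 with undetected folds at their lower bounds. Median scaling also turned 59.3% of all calls being higher into 77.6%, and lifted the pathway genes called higher from 5 to 7; the cause was not tested. Slc7a3 lost its call without background correction (-0.29), with normexp without negative controls (-0.84), at an offset of 50 (-0.44), in the Student test of the methods, at an adjusted p below 0.01, at its lower bound (-0.50), without secretory replicate 2 (-0.84), without secretory replicate 3 (-0.66) and with both maturation replicates left out. Ass1 lost it without background correction (-0.35), at an offset of 50 (-0.55) and at its lower bound (-0.72), and Enoph1 under median scaling (-0.69). Signal close to background limits Slc7a1 and Nos2.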
